A study of Mus musculus with 15 samples.

Results

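The 10 genes described here encode receptors of the tumour necrosis factor (TNF) family, which pass death or survival signals into liver cells, or adaptors. Tnfrsf1a, Tnfrsf21, Tnfrsf10b and Fas encode receptors with an intracellular death domain. The receptors of Tnfrsf12a, Tnfrsf1b, Ltbr and Tnfrsf19 lack one. Tradd and Fadd encode the adaptors TRADD and FADD, which serve receptors with a death domain. All 10 were chosen by gene symbol. Each was measured by 1 probe set, and all 10 are among the 19938 genes with a single platform symbol. When TNF binds its receptor TNFR1, TRADD and partner proteins recruit the IkB kinase complex, which contains NEMO and activates the survival factor NF-kB, and they also activate the stress kinases JNK1 and JNK2. Without NEMO, hepatocytes lose NF-kB activation by this route, and the same receptors can pass the signal through FADD to cell death by caspases or by necroptosis. Hepatocytes are known for their sensitivity to death signals from TNFR1, Fas and, in stressed liver, the TRAIL receptor.

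RNA from whole livers of 15 mice, all 8 weeks old and on a C57BL/6 background, was measured on Affymetrix whole-transcript arrays, with 1 mouse per array and 3 mice in each of 5 groups. NEMO/Jnk1 DKO mice carried a constitutive Jnk1-/- deletion in all cells together with loxP-flanked NEMO deleted by Alb-cre, an albumin-driven Cre that acts in hepatocytes (NEMOΔhepa). NEMO/Jnk2 DKO mice combined NEMOΔhepa with constitutive Jnk2-/-. Jnk1 KO and Jnk2 KO mice were the global Jnk1-/- and Jnk2-/- animals with NEMO labelled intact, and WT mice were NEMO floxed/floxed; the labels do not say whether the single knockouts carry the floxed allele. No group here lacked NEMO alone, cells in which Alb-cre is not active keep NEMO, and every NEMO-deleted liver also lacked a JNK in all its cells. Values are deposited log2 expression levels. Differences are in log2 units, each with the standard error (SE) that limma estimated from all groups together, and the threshold was a p under 0.05 after Benjamini-Hochberg adjustment over all genes. Where all arrays of a group are said to lie above or below those of another, this describes the arrays and is no test. The share of all genes that separate in this way was not computed. In whole liver, a change in the number of cells of a type and a change in RNA per cell cannot be told apart.

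The labels were checked before the members were compared. Mapk9 (JNK2) read 2.39 to 3.28 in the 6 arrays labelled Jnk2-null and 7.41 to 7.67 in the others, and Mapk8 (JNK1) read 5.87 to 6.53 in the 6 labelled Jnk1-null and 6.58 to 7.03 in the others. The 6.53 was in NEMO/Jnk1 DKO replicate 3, which Mapk8 sets apart from the others only narrowly. The remaining arrays labelled Jnk1-null read 5.87 to 6.23. All 9 measured hepatocyte markers were at 9.70 or above in every array. In the arrays labelled Jnk1 KO replicate 1 and Jnk2 KO replicate 3, expression went against the NEMO label: Ly6d read 10.12 and 9.70 in them, 7.88 to 10.48 in the double knockouts and 4.67 to 5.35 in the 7 remaining arrays with NEMO labelled intact. Ikbkg (NEMO) read 6.75 and 6.24 in them, 6.18 to 6.85 in the double knockouts and 7.03 to 7.41 in those 7. The members were therefore tested with all 15 arrays and with 13, without these 2, and since the 2 were set aside for genes that mark the double knockouts, the fit to 13 arrays is no independent evidence. All mice were labelled male, but Xist, which is expressed from the inactive X chromosome of females, read 8.68 to 9.17 in Jnk1 KO replicate 1 and NEMO/Jnk1 DKO replicates 1 and 2, and at most 2.82 in the others.

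**Figure D1:**
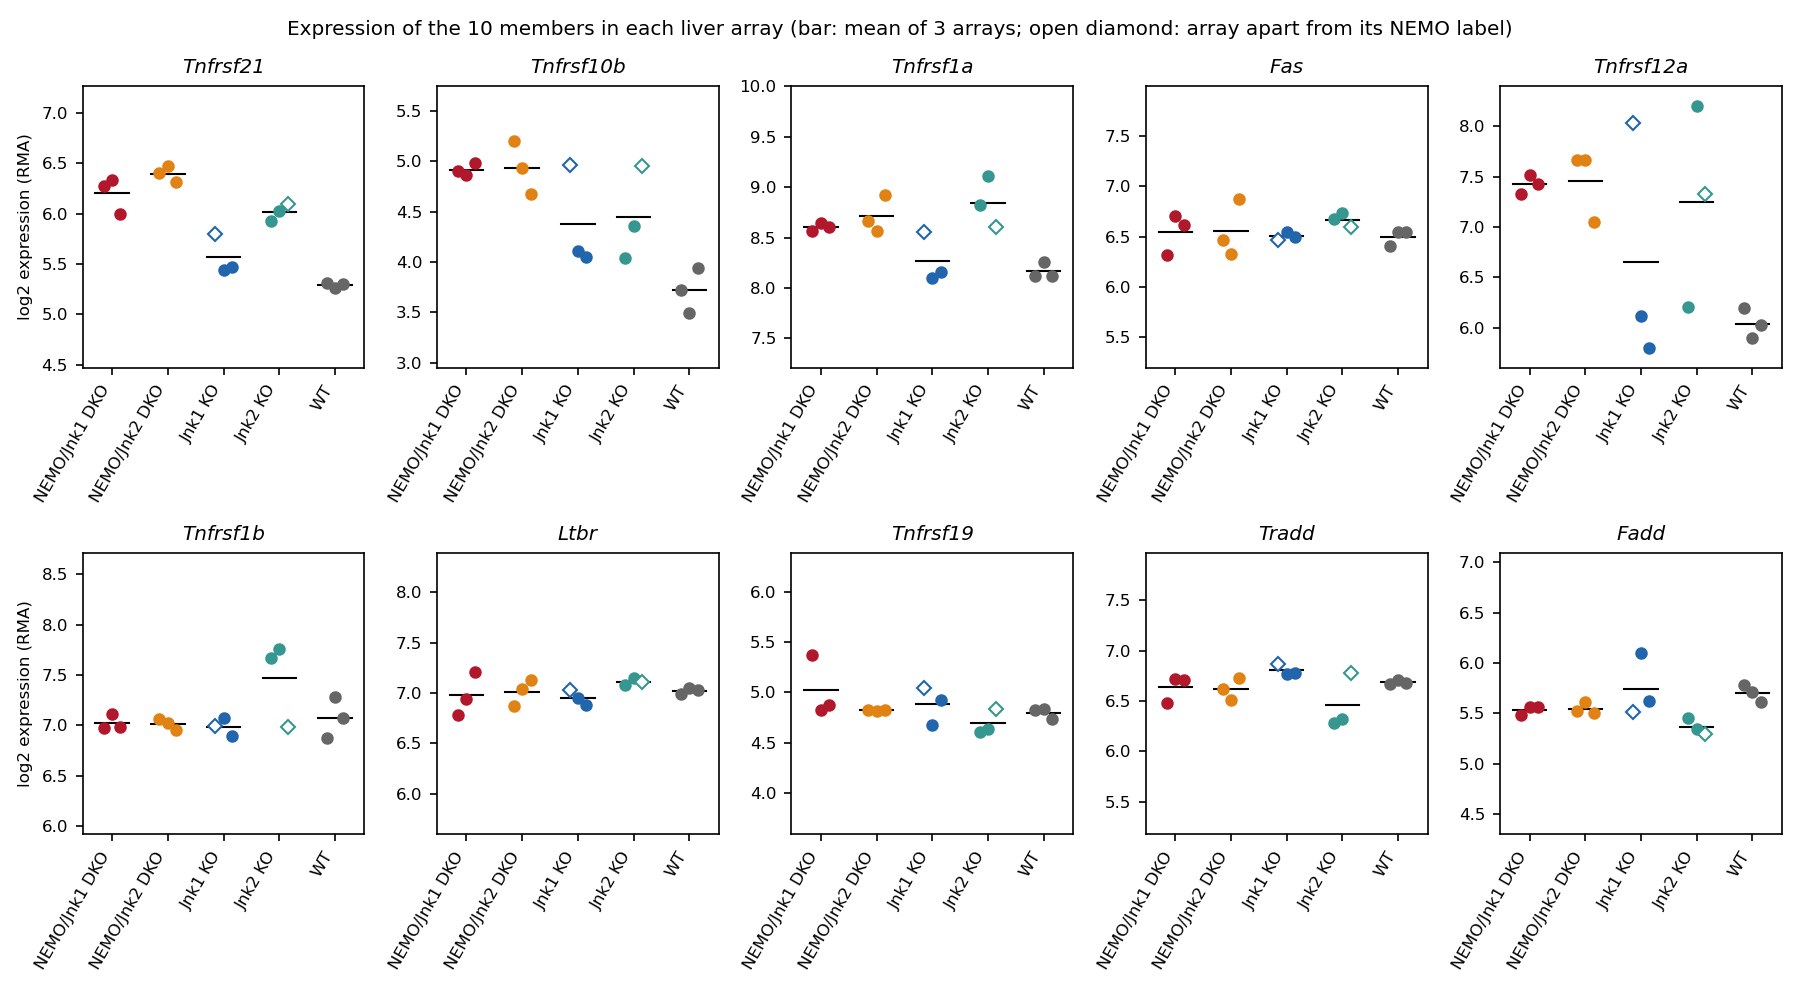
log2 expression (RMA) of the 10 members in the 15 liver arrays, by group, with a bar at the mean of 3 arrays and open diamonds for Jnk1 KO replicate 1 and Jnk2 KO replicate 3. Tnfrsf21, Tnfrsf10b, Tnfrsf1a and Tnfrsf12a lie above WT in all 6 double-knockout arrays, while Fas, Ltbr and Tnfrsf1b overlap WT there; each panel spans the same range of log2 units.

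Among the receptors with a death domain, Tnfrsf21, which encodes death receptor 6, rose in both double knockouts. It read 6.28, 6.33 and 6.00 in NEMO/Jnk1 DKO livers and 6.40, 6.47 and 6.31 in NEMO/Jnk2 DKO livers, against 5.31, 5.26 and 5.30 in WT. No double-knockout array came near the narrow WT range. The difference from WT was 0.91 (SE 0.11, limma adjusted p = 0.00475, 1.88-fold) in NEMO/Jnk1 DKO and 1.11 (SE 0.11, limma adjusted p = 0.00051, 2.15-fold) in NEMO/Jnk2 DKO, and it was the member with the lowest p in both comparisons. With 13 arrays the limma adjusted p was 0.000176 for NEMO/Jnk1 DKO and 2.49e-05 for NEMO/Jnk2 DKO. In NEMO/Jnk1 DKO, where replicates 1 and 2 carry the female Xist pattern, a term for sex gave 0.70 (limma adjusted p = 0.0366), and leaving out the 3 arrays of that pattern gave 0.71 from replicate 3 alone (limma adjusted p = 0.126), with that array assumed to vary like the others.

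Tnfrsf10b encodes the TRAIL receptor of the mouse, which has a death domain. It read 4.90, 4.87 and 4.98 in NEMO/Jnk1 DKO livers and 5.20, 4.94 and 4.67 in NEMO/Jnk2 DKO livers, against 3.72, 3.49 and 3.94 in WT, where replicate 2 lay under the 40th percentile of all values (3.69). The WT mean of 3.72 was close to that percentile, so the size of the differences from WT is uncertain. The double-knockout arrays all lay above all WT arrays. Against WT it stood 1.20 higher (SE 0.25, limma adjusted p = 0.0818) in NEMO/Jnk1 DKO, which did not pass with all 15 arrays, and it rose by 1.22 (SE 0.25, limma adjusted p = 0.028, 2.32-fold) in NEMO/Jnk2 DKO. The call in NEMO/Jnk2 DKO was lost without NEMO/Jnk2 DKO replicate 1 (1.08, adjusted p = 0.132) or 2 (1.22, adjusted p = 0.0705) and without WT replicate 1 (1.22, adjusted p = 0.0812), 2 (1.10, adjusted p = 0.12) or 3 (1.33, adjusted p = 0.0535). With 13 arrays both differences had the same size and passed (limma adjusted p = 0.000331 for NEMO/Jnk1 DKO and 0.000171 for NEMO/Jnk2 DKO), since leaving out single-knockout arrays alters the estimated spread and not the means compared.

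Tnfrsf1a encodes TNFR1, the main death and survival receptor for TNF. It read 8.56, 8.64 and 8.61 in NEMO/Jnk1 DKO livers and 8.67, 8.57 and 8.92 in NEMO/Jnk2 DKO livers, against 8.12, 8.25 and 8.11 in WT. All double-knockout arrays were above all WT arrays. With all 15 arrays the differences of 0.44 (SE 0.14, limma adjusted p = 0.159) in NEMO/Jnk1 DKO and 0.55 (SE 0.14, limma adjusted p = 0.0536) in NEMO/Jnk2 DKO did not pass. With 13 arrays they passed (limma adjusted p = 0.0227 in NEMO/Jnk1 DKO livers and 0.00447 in NEMO/Jnk2 DKO livers), and the fold changes were 1.36 and 1.47.

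Fas, the receptor for Fas ligand, did not pass. It read 6.32, 6.70 and 6.61 in NEMO/Jnk1 DKO livers and 6.47, 6.32 and 6.87 in NEMO/Jnk2 DKO livers, against 6.41, 6.54 and 6.54 in WT. The groups overlapped, and the differences were 0.05 (SE 0.13, limma adjusted p = 0.889) and 0.06 (SE 0.13, limma adjusted p = 0.87).

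Of the receptors without a death domain, Tnfrsf12a was the one that stood higher in the double knockouts. It encodes Fn14, the receptor for TWEAK, which signals through TRAF proteins and is known for its induction in regenerating and injured liver. It read 7.32, 7.52 and 7.43 in NEMO/Jnk1 DKO livers and 7.67, 7.67 and 7.05 in NEMO/Jnk2 DKO livers, against 6.19, 5.90 and 6.03 in WT. All 6 double-knockout arrays were above all WT arrays. The differences of 1.38 (SE 0.51, limma adjusted p = 0.203, 2.61-fold) in NEMO/Jnk1 DKO and 1.42 (SE 0.51, limma adjusted p = 0.146, 2.68-fold) in NEMO/Jnk2 DKO did not pass with all 15 arrays and passed with 13 (limma adjusted p = 0.0298 in NEMO/Jnk1 DKO livers and 0.0206 in NEMO/Jnk2 DKO livers). Within groups, its SD was 1.21 in Jnk1 KO and 1.00 in Jnk2 KO, against 0.15 in WT.

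The other receptors without a death domain gave no call against WT in either double knockout. Tnfrsf1b, which encodes the second TNF receptor TNFR2, was at -0.05 (SE 0.16) in NEMO/Jnk1 DKO and -0.06 (SE 0.16) in NEMO/Jnk2 DKO. Ltbr, the lymphotoxin beta receptor, was at -0.05 and -0.01 (SE 0.10 for both). Tnfrsf19, which encodes TROY, was at 0.23 and 0.03 (SE 0.13 for both), and its highest value, 5.37, was in NEMO/Jnk1 DKO replicate 1 against 4.83 and 4.87 in the other replicates. The limma adjusted p of these 3 genes lay between 0.432 and 0.977.

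The adaptors did not pass either. Fadd, which links death domains to caspase-8, read 5.48, 5.57 and 5.57 in NEMO/Jnk1 DKO livers and 5.52, 5.61 and 5.50 in NEMO/Jnk2 DKO livers, against 5.78, 5.71 and 5.62 in WT. Both double knockouts lay just below WT without overlap, at -0.17 (SE 0.12, limma adjusted p = 0.538) and -0.16 (SE 0.12, limma adjusted p = 0.545). Tradd, the adaptor of TNFR1, read 6.48, 6.72 and 6.70 in NEMO/Jnk1 DKO livers and 6.62, 6.51 and 6.72 in NEMO/Jnk2 DKO livers, against 6.67, 6.71 and 6.68 in WT, with differences of -0.05 and -0.07 (SE 0.12 for both). With 13 arrays the 6 members without a call, Fas, Tnfrsf1b, Ltbr, Tnfrsf19, Fadd and Tradd, had the same differences and limma adjusted p between 0.35 and 0.976.

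Counted over the members, 1 of 10 passed between NEMO/Jnk1 DKO and WT with all 15 arrays, where 0.0652% of all genes did, and 2 of 10 passed between NEMO/Jnk2 DKO and WT, where 2.63% of all genes did. With 13 arrays 4 of 10 passed in each comparison, all of them upward (Tnfrsf21, Tnfrsf10b, Tnfrsf1a and Tnfrsf12a), where 7.91% of all genes passed for NEMO/Jnk1 DKO and 10.6% for NEMO/Jnk2 DKO. With 13 arrays and a term for sex, 2 of 10 and 1.31% of all genes passed in NEMO/Jnk1 DKO, Tnfrsf21 at 0.71 (limma adjusted p = 0.0125) and Tnfrsf10b at 1.26 (limma adjusted p = 0.0132), from replicate 3 alone. The median difference of the 10 members was 0.14 in NEMO/Jnk1 DKO livers and 0.04 in NEMO/Jnk2 DKO livers, and that of all genes was -0.04 in both. Both comparisons share the WT arrays.

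**Figure D2:**
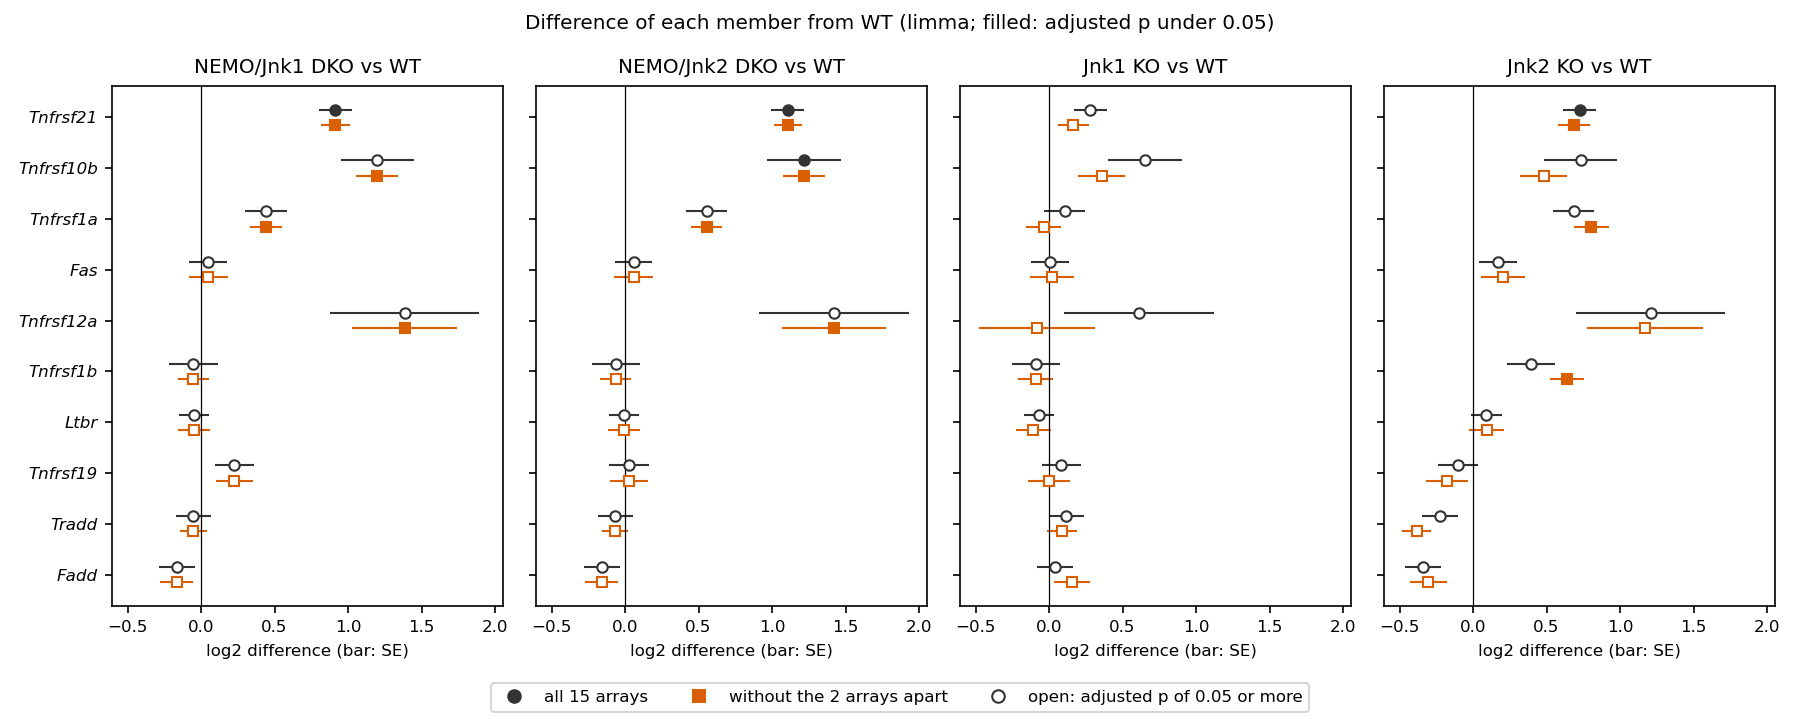
log2 difference of each member from WT, with its SE, in the 4 mutant groups, from the fit to all 15 arrays (circles) and to 13 arrays (squares); filled symbols passed limma's test. Tnfrsf21 is filled in both fits in NEMO/Jnk1 DKO, NEMO/Jnk2 DKO and Jnk2 KO, and no member is filled in Jnk1 KO.

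The starts of genes that moved together can be set side by side. RefSeq promoter windows (GRCm38.p6) were at hand for 8 of the 10 members, and the 250 bases before the annotated start are given for the 3 of these that stood higher in both double knockouts and for Fas, which did not. Capitals mark a match to the AP-1 site TGANTCA on either strand, AP-1 being the transcription factor that JNK activates.
Tnfrsf21 (chr17:43016305-43016554, plus strand): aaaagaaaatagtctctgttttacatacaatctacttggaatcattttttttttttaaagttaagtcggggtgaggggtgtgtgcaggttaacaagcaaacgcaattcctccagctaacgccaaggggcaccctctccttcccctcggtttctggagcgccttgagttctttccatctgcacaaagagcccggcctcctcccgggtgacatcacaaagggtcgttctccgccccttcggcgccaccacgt
Tnfrsf1a (chr6:125349473-125349722, plus strand): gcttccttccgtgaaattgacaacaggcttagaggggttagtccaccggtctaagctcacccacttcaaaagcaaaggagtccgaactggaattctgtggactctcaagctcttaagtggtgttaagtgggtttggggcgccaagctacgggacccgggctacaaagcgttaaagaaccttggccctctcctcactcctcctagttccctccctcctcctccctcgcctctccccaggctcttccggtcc
Tnfrsf12a (chr17:23677450-23677699, minus strand): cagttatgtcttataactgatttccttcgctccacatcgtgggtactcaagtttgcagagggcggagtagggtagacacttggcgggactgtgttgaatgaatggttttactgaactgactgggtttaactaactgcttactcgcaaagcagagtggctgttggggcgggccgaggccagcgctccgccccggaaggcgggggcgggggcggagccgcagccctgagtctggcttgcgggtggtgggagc
Fas (chr19:34290409-34290658, plus strand): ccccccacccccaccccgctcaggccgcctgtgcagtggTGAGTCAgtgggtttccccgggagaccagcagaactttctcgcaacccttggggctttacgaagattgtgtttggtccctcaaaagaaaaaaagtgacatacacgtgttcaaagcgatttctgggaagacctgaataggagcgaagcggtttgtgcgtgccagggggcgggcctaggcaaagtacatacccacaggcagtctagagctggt
The AP-1 motif occurred in the window of Fas alone, 211 to 205 bases before the start, and in 6.7% of the 32851 windows of the same length. Neither the cyclic AMP response element TGACGTCA, which 1.5% of all windows hold, nor the NF-kB consensus, which 3.9% hold, occurred in any of the 9 windows of the members, both strands searched. No match overlapped another, and these counts describe only the letters in these windows.

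The added loss of hepatocyte NEMO was read on each Jnk-null background. Between NEMO/Jnk1 DKO and Jnk1 KO, limma called 0 of 10 members with all 15 arrays (3 at an unadjusted p under 0.05) and 0% of all genes (908 at an unadjusted p under 0.05). With 13 arrays, where Jnk1 KO has n = 2, 3 of 10 passed and 5.18% of all genes did. Tnfrsf21 rose by 0.75 (SE 0.11, limma adjusted p = 0.00136) over 5.44 and 5.47 in Jnk1 KO, and stood at 0.63 with all 15 arrays (limma adjusted p = 0.383). Tnfrsf10b rose by 0.84 (SE 0.16, limma adjusted p = 0.00748) over 4.11 and 4.05 in Jnk1 KO, and stood at 0.54 with all 15 arrays (limma adjusted p = 0.962). Tnfrsf1a rose by 0.48 (SE 0.12, limma adjusted p = 0.035) over 8.10 and 8.15 in Jnk1 KO, and stood at 0.34 with all 15 arrays (limma adjusted p = 0.962). These 3 receptors have a death domain. Tnfrsf12a, at 6.12 and 5.80 in those Jnk1 KO arrays, stood 1.47 higher in NEMO/Jnk1 DKO (SE 0.40, limma adjusted p = 0.0505), against 0.77 with all 15 arrays (SE 0.51, limma adjusted p = 0.962). The array set aside, Jnk1 KO replicate 1, read 8.03 for Tnfrsf12a, above all NEMO/Jnk1 DKO arrays, and 4.96 for Tnfrsf10b, within their range. It read 8.55 for Tnfrsf1a, just under their lowest value of 8.56, and 5.80 for Tnfrsf21, below all of them. Leaving out that array alone gave 1 call among the members, Tnfrsf21 at 0.75 (limma adjusted p = 0.00846), where 1.32% of all genes passed. With 13 arrays and the sex term, NEMO/Jnk1 DKO is again represented by replicate 3, and 0 of 10 passed (limma; 4 at an unadjusted p under 0.05), where 1.21% of all genes did: the differences were 0.54 for Tnfrsf21 (limma adjusted p = 0.0569), 0.91 for Tnfrsf10b (limma adjusted p = 0.0824), 0.48 for Tnfrsf1a (limma adjusted p = 0.269) and 1.47 for Tnfrsf12a (limma adjusted p = 0.319).

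Between NEMO/Jnk2 DKO and Jnk2 KO, limma called 0 of 10 members with all 15 arrays (2 at an unadjusted p under 0.05), where 0.00502% of all genes passed. With 13 arrays 3 of 10 passed and 5.85% of all genes did. Tnfrsf21 rose by 0.42 (SE 0.11, limma adjusted p = 0.0368) over 5.93 and 6.02 in Jnk2 KO, and stood at 0.38 with all 15 arrays (limma adjusted p = 0.512). Tnfrsf10b rose by 0.74 (SE 0.16, limma adjusted p = 0.0158) over 4.04 and 4.36 in Jnk2 KO, and stood at 0.48 with all 15 arrays (limma adjusted p = 0.662). Tnfrsf1b stood 0.70 lower (SE 0.12, limma adjusted p = 0.00375), and at -0.46 with all 15 arrays (SE 0.16, limma adjusted p = 0.563). It read 7.06, 7.02 and 6.95 in NEMO/Jnk2 DKO, against 7.67 and 7.75 in Jnk2 KO replicates 1 and 2. The WT arrays read 6.88, 7.28 and 7.07, a range that holds the NEMO/Jnk2 DKO values. Tnfrsf1a and Tnfrsf12a, which stood higher against WT, differed from Jnk2 KO by -0.25 (SE 0.12, limma adjusted p = 0.297) and 0.25 (SE 0.40, limma adjusted p = 0.839) with 13 arrays, and by -0.13 and 0.21 with all 15. The array set aside, Jnk2 KO replicate 3, read 6.99 for Tnfrsf1b and 4.96 for Tnfrsf10b, both inside the NEMO/Jnk2 DKO range, and 6.09 for Tnfrsf21, below all NEMO/Jnk2 DKO arrays (6.31 to 6.47). Leaving out that array alone gave 1 call among the members, Tnfrsf1b at -0.70 (limma adjusted p = 0.0193), where 0.597% of all genes passed.

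The test of whether the NEMO effect differed between the Jnk1-null and Jnk2-null backgrounds called 0 of 10 members with all 15 arrays (limma; 2 at an unadjusted p under 0.05), and 0% of all genes (548 at an unadjusted p under 0.05). With 13 arrays it also called 0 of 10 (5 at an unadjusted p under 0.05), and 0.0100% of all genes. The differences of effects furthest from 0 were then 1.21 (SE 0.56, limma adjusted p = 0.757) for Tnfrsf12a, 0.74 (SE 0.17, limma adjusted p = 0.231) for Tnfrsf1b and 0.73 (SE 0.17, limma adjusted p = 0.27) for Tnfrsf1a, and with all 15 arrays 0.56 (SE 0.72), 0.50 (SE 0.23) and 0.46 (SE 0.20) for the same 3 genes. Directly compared, NEMO/Jnk1 DKO and NEMO/Jnk2 DKO gave 0 calls among the members (limma; 0 at an unadjusted p under 0.05 in either fit), where 0.105% of all genes passed with all 15 arrays and 0.321% with 13. The member differences lay between -0.19 (Tnfrsf21, SE 0.11) and 0.20 (Tnfrsf19, SE 0.13) with all 15 arrays.

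Where NEMO was labelled intact, Tnfrsf21 was the member that passed in Jnk2 KO with all 15 arrays. It rose, reading 5.93, 6.02 and 6.09, against 5.31, 5.26 and 5.30 in WT (0.72, SE 0.11, limma adjusted p = 0.0126, 1.65-fold), and by 0.69 with 13 arrays (limma adjusted p = 0.00825). This was 1 of 10 members, where 0.411% of all genes passed. The Tnfrsf21 call was lost without Jnk2 KO replicate 2 (0.72, adjusted p = 0.0596) and without WT replicate 1 (0.73, adjusted p = 0.0576), 2 (0.71, adjusted p = 0.0574) or 3 (0.73, adjusted p = 0.0603).

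With 13 arrays 3 of 10 members passed between Jnk2 KO (n = 2) and WT, where 1.24% of all genes did. Tnfrsf1a rose by 0.80 (SE 0.12, limma adjusted p = 0.00636), with 8.82 and 9.11 in Jnk2 KO replicates 1 and 2 and 8.60 in replicate 3, against 8.12, 8.25 and 8.11 in WT, and stood at 0.68 with all 15 arrays (SE 0.14, limma adjusted p = 0.0585). Tnfrsf1b rose by 0.64 (SE 0.12, limma adjusted p = 0.0191), with 7.67 and 7.75 in replicates 1 and 2 and 6.99 in replicate 3, against 6.88, 7.28 and 7.07 in WT, and stood at 0.40 with all 15 arrays (SE 0.16, limma adjusted p = 0.353). For Tnfrsf1b replicates 1 and 2 gave the 2 highest values of all 15 arrays, and for Tnfrsf1a replicate 2 was the highest while replicate 1 lay below NEMO/Jnk2 DKO replicate 3 (8.92). Tradd was lowest of all 15 arrays in the same 2 livers, at 6.29 and 6.32, against 6.67, 6.71 and 6.68 in WT (-0.38, SE 0.10, limma adjusted p = 0.092 with 13 arrays), and read 6.78 in replicate 3 (-0.23, SE 0.12, limma adjusted p = 0.473 with all 15). Fadd read 5.46, 5.34 and 5.30 in Jnk2 KO, below all WT arrays (-0.34, SE 0.12, limma adjusted p = 0.275 with all 15 arrays).

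Tnfrsf12a was split inside Jnk2 KO: replicate 1 read 6.21, close to the WT arrays, and replicate 2 read 8.20, the highest value of the gene in any array, with 7.33 in replicate 3. Its difference from WT was 1.21 (SE 0.51, limma adjusted p = 0.361) with all 15 arrays and 1.17 (SE 0.40, limma adjusted p = 0.204) with 13. Tnfrsf10b stood 0.73 above WT (SE 0.25, limma adjusted p = 0.24), and 0.48 with 13 arrays (limma adjusted p = 0.192). Fas, Ltbr and Tnfrsf19 stood at 0.17, 0.09 and -0.10 (limma adjusted p between 0.633 and 0.798).

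Beside these shifts, Cxcl1, a neutrophil chemokine under NF-kB control, read 9.10 and 9.53 in Jnk2 KO replicates 1 and 2 and 6.09 in replicate 3, against 5.96, 6.26 and 5.72 in WT. Map3k5 (ASK1), a kinase that activates JNK after TNF or oxidative stress, read 8.00 and 8.98 in replicates 1 and 2 and 7.58 in replicate 3, against 7.19, 7.39 and 7.32 in WT. Their part in the receptor differences was not tested.

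No member passed between Jnk1 KO and WT. With all 15 arrays limma called 0 of 10 members (2 at an unadjusted p under 0.05), where 0.0100% of all genes passed, and with 13 it called 0 of 10 (1 at an unadjusted p under 0.05), where 0.0150% did. Jnk1 KO replicates 2 and 3 read 5.44 and 5.47 for Tnfrsf21 and 4.11 and 4.05 for Tnfrsf10b, above all WT arrays, with differences of 0.17 (SE 0.11, limma adjusted p = 0.982) and 0.36 (SE 0.16, limma adjusted p = 0.976) from 13 arrays, and of 0.28 (SE 0.11) and 0.65 (SE 0.25) with all 15 (limma adjusted p = 0.86 for both). For Tnfrsf12a the difference was 0.61 (SE 0.51) with all 15 arrays and -0.08 (SE 0.40) with 13.

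Set against each other, Jnk1 KO and Jnk2 KO gave 0 of 10 calls with all 15 arrays (limma; 5 at an unadjusted p under 0.05), where 0.130% of all genes passed. With 13 arrays 2 of 10 passed, where 0.597% of all genes did. Tnfrsf1a was lower in Jnk1 KO (-0.84, SE 0.13, limma adjusted p = 0.0104, and -0.58, adjusted p = 0.216 with all 15 arrays), and so was Tnfrsf1b (-0.73, SE 0.13, limma adjusted p = 0.0216, and -0.48, adjusted p = 0.464 with all 15 arrays). Tnfrsf21 stood at -0.52 (SE 0.12, limma adjusted p = 0.0767) and Tradd at 0.47 (SE 0.11, limma adjusted p = 0.0857), and at -0.44 and 0.34 with all 15 arrays. Leaving out 1 array also changed calls: without Jnk1 KO replicate 1, Tnfrsf1a (-0.72) and Tnfrsf21 (-0.56) passed (limma adjusted p = 0.044 for both) where 0.346% of all genes did, and without Jnk2 KO replicate 3, Tnfrsf1b (-0.73, limma adjusted p = 0.0141) and Tradd (0.50, limma adjusted p = 0.0434) passed where 0.522% did.

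Over the 5 groups with all 15 arrays, Tnfrsf21 was ordered NEMO/Jnk2 DKO (6.40 ± 0.08, SD, n = 3), NEMO/Jnk1 DKO (6.20 ± 0.18), Jnk2 KO (6.01 ± 0.08), Jnk1 KO (5.57 ± 0.20) and WT (5.29 ± 0.02). Neighbours in this order did not pass limma's test where it was run, and NEMO/Jnk1 DKO and Jnk2 KO, whose ranges overlap, were not tested against each other. Tnfrsf1a had another order, with Jnk2 KO highest (8.85 ± 0.25), followed by NEMO/Jnk2 DKO (8.72 ± 0.18), NEMO/Jnk1 DKO (8.60 ± 0.04), Jnk1 KO (8.27 ± 0.25) and WT (8.16 ± 0.08), and no neighbours in this order passed limma's test with all 15 arrays. The 2 members whose group means spanned the widest range were Tnfrsf12a (1.42) and Tnfrsf10b (1.22). The genes most like Tnfrsf12a over the 15 arrays were Pafah1b2 (Pearson r = 0.943), Eif4a1 (0.938), Ppl (0.936), Efhd2 (0.918) and Tubb2a (0.915). Those most like Tnfrsf10b were Ywhaz (Pearson r = 0.952), Abi3 (0.946), Tpm4 (0.945), Capza1 (0.942) and Lpl (0.941). The arrays fall into groups, and after each gene's group means were taken off, these r lay between 0.888 and 0.907 for Tnfrsf12a and between 0.850 and 0.906 for Tnfrsf10b. These within-group values include the 2 arrays set aside.

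Some markers of other liver cells were also higher in the double knockouts than in WT. Beside the counts below, 7.91% of all genes passed between NEMO/Jnk1 DKO and WT with 13 arrays, and 10.6% between NEMO/Jnk2 DKO and WT. With all 15 arrays these shares were 0.0652% and 2.63%. Of 12 measured monocyte and macrophage markers, 9 rose in each double knockout against WT with 13 arrays, and 0 in NEMO/Jnk1 DKO (limma; 10 at an unadjusted p under 0.05) and 1 in NEMO/Jnk2 DKO with all 15. The log2 of their summed linear level was 11.23 to 11.80 in NEMO/Jnk1 DKO livers and 11.08 to 11.69 in NEMO/Jnk2 DKO livers, 10.46 and 10.37 in Jnk1 KO replicates 2 and 3, 10.70 and 10.28 in Jnk2 KO replicates 1 and 2, and 9.73 to 10.50 in WT. This list holds Mmp12, which also separates the arrays set aside. Of 9 stellate cell and myofibroblast markers 6 rose in each double knockout with 13 arrays, and their summed level was 10.64 to 10.95 in NEMO/Jnk1 DKO livers and 10.58 to 10.93 in NEMO/Jnk2 DKO livers, against 9.41 to 9.59 in WT. With all 15 arrays 0 of them passed (limma; 3 at an unadjusted p under 0.05 in NEMO/Jnk1 DKO livers and 4 in NEMO/Jnk2 DKO livers). Of 6 proliferation markers 4 rose in NEMO/Jnk1 DKO livers and 5 in NEMO/Jnk2 DKO livers with 13 arrays. With the sex term as well, 2 macrophage, 4 stellate and 1 proliferation marker passed in NEMO/Jnk1 DKO. In the 2 arrays set aside, the macrophage sum was 11.54 in Jnk1 KO replicate 1 and 11.37 in Jnk2 KO replicate 3, and the stellate sum 11.30 and 11.46. The hepatocyte sum lay between 15.46 and 15.78 in all 15 arrays. It was 15.46 to 15.50 in NEMO/Jnk2 DKO, below all WT arrays (15.65 to 15.78), and 15.57 to 15.65 in NEMO/Jnk1 DKO, overlapping WT. With 13 arrays 1 of 9 hepatocyte markers fell in NEMO/Jnk1 DKO livers and 3 in NEMO/Jnk2 DKO livers. Of 8 endothelial markers 1 rose in NEMO/Jnk1 DKO with 13 arrays, and of 7 neutrophil markers 2 rose in NEMO/Jnk2 DKO. The neutrophil sum was 6.34 to 6.75 in NEMO/Jnk2 DKO and 6.42 to 6.61 in Jnk2 KO, above all WT arrays (5.97 to 6.21), and 0 of its markers passed in Jnk2 KO (limma; 4 at an unadjusted p under 0.05). The stellate sum lay below WT in Jnk1 KO replicates 2 and 3 (8.88 and 9.28) and in Jnk2 KO replicates 1 and 2 (9.34 and 8.86). Jnk2 KO replicate 2 read highest of all 15 arrays for Tnfrsf12a (8.20) and Tnfrsf1a (9.11). Its macrophage sum of 10.28 lay within the WT range. The cholangiocyte and progenitor sum was 7.27 to 8.12 in NEMO/Jnk1 DKO and 7.14 to 7.23 in NEMO/Jnk2 DKO, above WT (6.80 to 7.06). For T and NK cells the sums were 6.74 to 7.23 and 6.98 to 7.41, against 6.78 to 6.85 in WT. For B cells they were 5.49 to 5.67 and 5.20 to 5.49, against 4.94 to 5.34 in WT. T and NK cell, B cell and neutrophil markers included several near the floor in every array. Klrb1c, Gzma and Gzmb read at most 3.57, Cd79a and Ms4a1 at most 3.68, and Ly6g and Cxcr2 at most 3.49. The part of other cell types in the receptor differences was not tested.

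**Figure D3:**
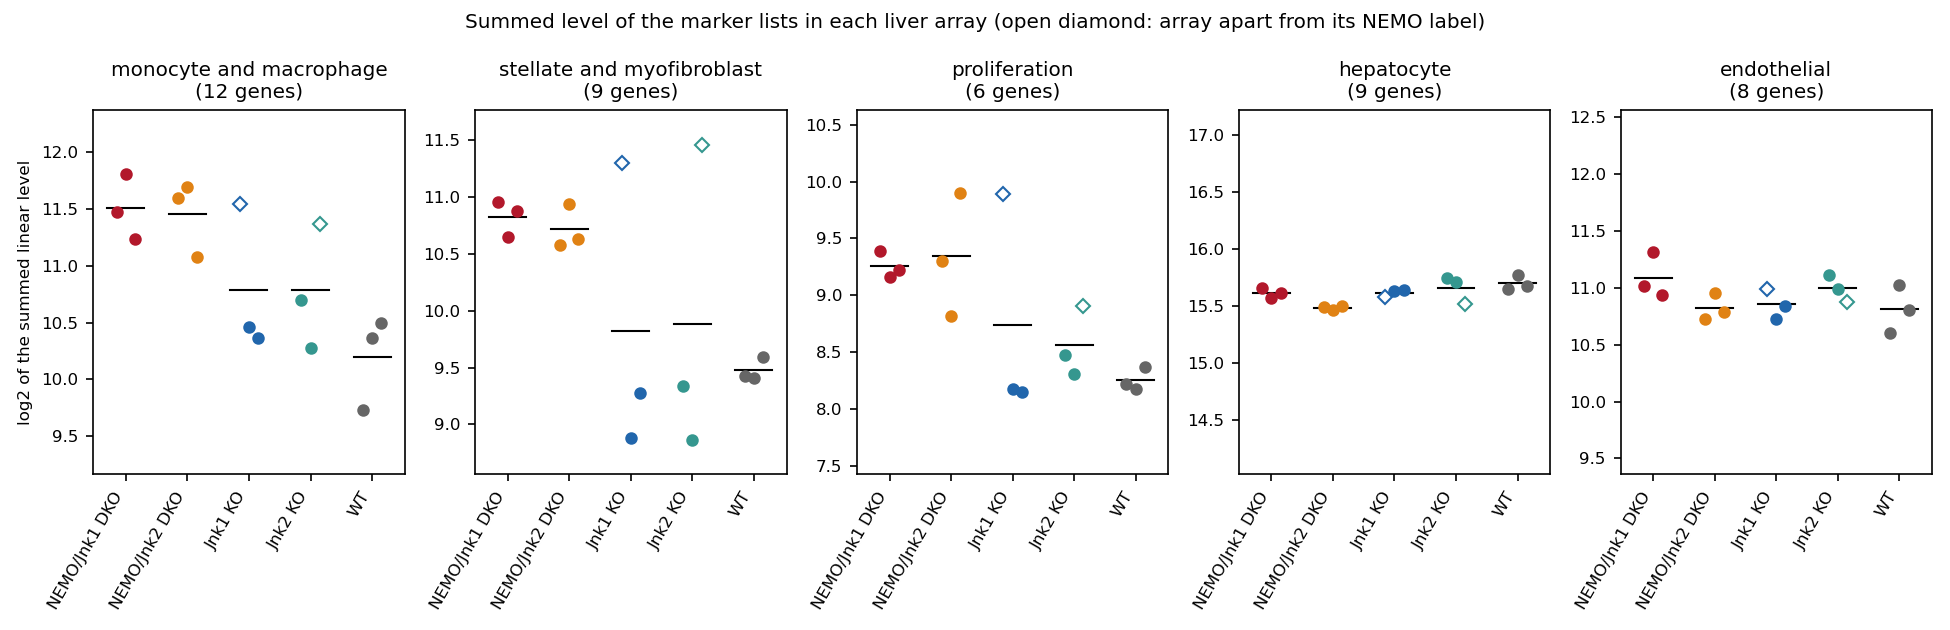
log2 of the summed linear level of each marker list in the 15 arrays, by group, with a bar at the mean of 3 arrays and open diamonds for the 2 arrays set aside. The macrophage, stellate and proliferation sums are higher in the double knockouts and in the diamonds than in WT. The hepatocyte sums lie between 15.46 and 15.78, with NEMO/Jnk2 DKO below all WT arrays. Panels span the same range of log2 units.

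The other genes of the pathway were read from lists. Of 17 measured TNF superfamily ligand genes, limma called 0 in each of the 8 comparisons of groups with all 15 arrays (at most 2 at an unadjusted p under 0.05). With 13 arrays App, which encodes the amyloid precursor protein, a reported ligand of death receptor 6, rose by 0.90 (SE 0.13, limma adjusted p = 0.00131) in NEMO/Jnk1 DKO and by 0.57 (SE 0.13, limma adjusted p = 0.0147) in NEMO/Jnk2 DKO against WT. It was the 1 ligand-list gene to pass in those comparisons, and with the sex term as well 0 passed in NEMO/Jnk1 DKO (limma; 1 at an unadjusted p under 0.05). Tnf itself read 4.70, 4.77 and 4.36 in NEMO/Jnk1 DKO livers and 4.76, 4.77 and 4.43 in NEMO/Jnk2 DKO livers, against 4.35, 4.27 and 4.26 in WT, and did not pass.

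Of 20 other TNF receptor superfamily genes, 0 passed in NEMO/Jnk1 DKO (limma, 3 at an unadjusted p under 0.05) and 1 in NEMO/Jnk2 DKO against WT with all 15 arrays. With 13 arrays 2 and 1 passed, all upward, where 7.91% and 10.6% of all genes did. Eda2r, the receptor for ectodysplasin A2, read 3.68, 3.93 and 4.85 in NEMO/Jnk1 DKO livers and 4.30, 4.62 and 4.54 in NEMO/Jnk2 DKO livers, against 3.16, 2.96 and 2.99 in WT. The WT values and the lowest NEMO/Jnk1 DKO value lay under the 40th percentile of all values (3.69), so the WT level was not shown to be above background and the size of the difference is uncertain. All double-knockout arrays were above WT (1.45, SE 0.35, limma adjusted p = 0.0462 in NEMO/Jnk2 DKO with all 15 arrays, and 1.12, SE 0.23, limma adjusted p = 0.00991 in NEMO/Jnk1 DKO with 13). Tnfrsf11b, the decoy receptor osteoprotegerin, rose by 0.57 in NEMO/Jnk1 DKO with 13 arrays (SE 0.16, limma adjusted p = 0.0487). The list's median difference was 0.11 in NEMO/Jnk1 DKO livers and 0.08 in NEMO/Jnk2 DKO livers, against -0.04 over all genes in both.

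Of 27 measured genes of receptor-proximal signalling, 0 passed in NEMO/Jnk1 DKO (limma; 8 at an unadjusted p under 0.05) and 2 in NEMO/Jnk2 DKO against WT with all 15 arrays, 1 in each direction. Bid, which links caspase-8 to mitochondrial death, fell by 1.04 (SE 0.15, limma adjusted p = 0.00617) in NEMO/Jnk2 DKO, where it read 4.82, 4.61 and 4.52, against 5.50, 5.77 and 5.80 in WT. It also fell by 0.79 (SE 0.15, limma adjusted p = 0.0426) in Jnk2 KO, at 5.02, 4.59 and 5.10, and was at -0.41 (SE 0.15, limma adjusted p = 0.213) in NEMO/Jnk1 DKO. Tnip1, an inhibitor of NF-kB signalling, rose by 0.47 (SE 0.11, limma adjusted p = 0.0375) in NEMO/Jnk2 DKO. With 13 arrays 7.91% of all genes passed for NEMO/Jnk1 DKO and 10.6% for NEMO/Jnk2 DKO. In this list 4 passed upward in each double knockout, and Bid again downward in NEMO/Jnk2 DKO. With the sex term as well, 0 passed in NEMO/Jnk1 DKO (limma; 4 at an unadjusted p under 0.05). Mlkl, the executioner of necroptosis, read 5.99, 6.16 and 5.52 in NEMO/Jnk1 DKO livers and 6.22, 5.87 and 6.17 in NEMO/Jnk2 DKO livers, against 4.35, 4.53 and 4.55 in WT. It stood 1.42 (SE 0.26, limma adjusted p = 0.00501) and 1.61 (SE 0.26, limma adjusted p = 0.00156) above WT with 13 arrays, and did not pass with all 15 (limma adjusted p = 0.179 in NEMO/Jnk1 DKO livers and 0.0919 in NEMO/Jnk2 DKO livers). Ripk3, the kinase that activates MLKL, rose by 0.52 (SE 0.14, limma adjusted p = 0.0362) in NEMO/Jnk1 DKO, and Map3k14 (NIK), the kinase of the alternative NF-kB pathway downstream of the lymphotoxin beta receptor and Fn14, rose by 0.48 (SE 0.14, limma adjusted p = 0.0472) in NEMO/Jnk1 DKO and 0.61 (SE 0.14, limma adjusted p = 0.0119) in NEMO/Jnk2 DKO, all with 13 arrays.

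Of 21 measured NF-kB feedback and target genes, 0 passed in NEMO/Jnk1 DKO (limma; 6 at an unadjusted p under 0.05) and 1 in NEMO/Jnk2 DKO against WT with all 15 arrays. That gene was Vcam1, an adhesion molecule of endothelium, at 2.12 (SE 0.44, limma adjusted p = 0.0285). With 13 arrays 3 rose and 1 fell in NEMO/Jnk1 DKO, where 7.91% of all genes passed. In NEMO/Jnk2 DKO 3 rose and 2 fell, where 10.6% of all genes passed. With the sex term as well, 1 rose in NEMO/Jnk1 DKO. The next values are from 13 arrays without the sex term. The chemokine gene Ccl5 rose by 0.84 (SE 0.14, limma adjusted p = 0.00303) in NEMO/Jnk1 DKO and 0.92 (SE 0.14, limma adjusted p = 0.00123) in NEMO/Jnk2 DKO. Nfkbia, the gene of the inhibitor IkB alpha, fell by 0.63 (SE 0.16, limma adjusted p = 0.0288) in NEMO/Jnk1 DKO and by 0.61 (SE 0.16, limma adjusted p = 0.0268) in NEMO/Jnk2 DKO. In Jnk1 KO Nfkbia stood at -0.42 (SE 0.18, limma adjusted p = 0.976), and at -0.60 with all 15 arrays (SE 0.22, limma adjusted p = 0.86). In Jnk2 KO, Cxcl1 (3.34, SE 0.42, limma adjusted p = 0.00229) and Vcam1 (1.23, SE 0.24, limma adjusted p = 0.0222) rose against WT with 13 arrays, and 0 of the list passed with all 15 (limma; 6 at an unadjusted p under 0.05).

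**Figure D4:**
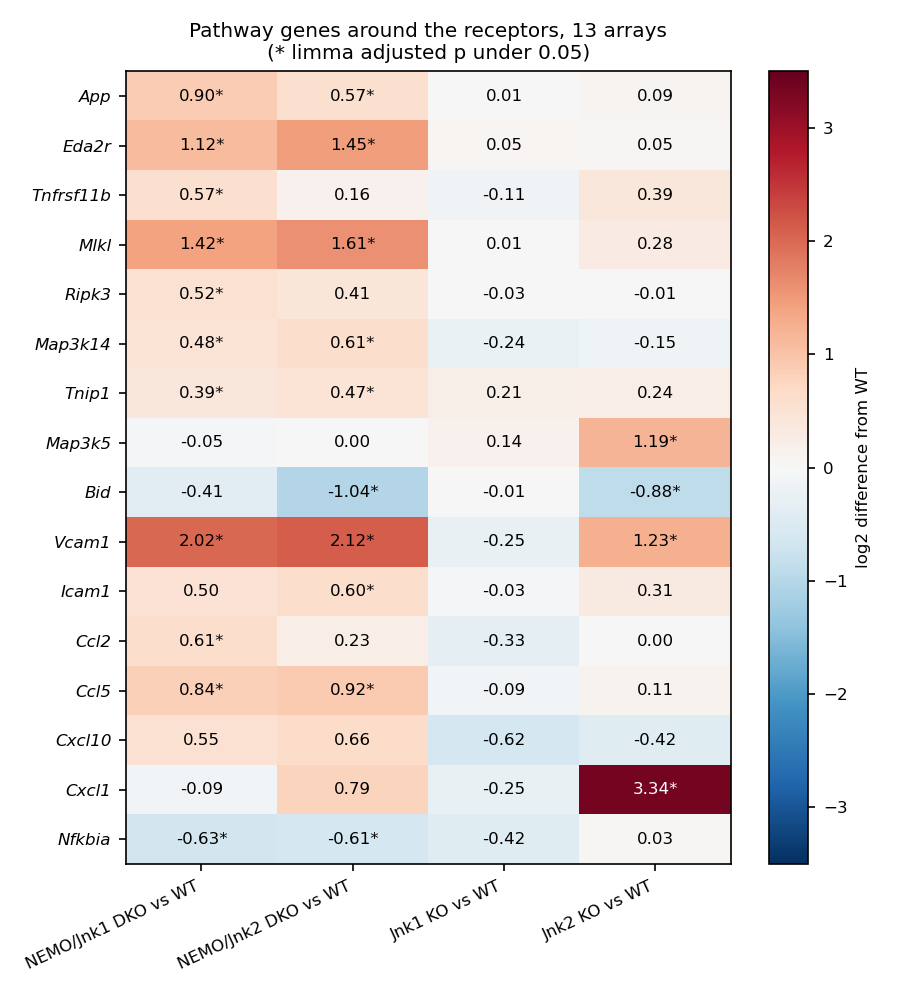
log2 difference from WT of 16 genes around the receptors in the 4 mutant groups, from the fit to 13 arrays; an asterisk marks limma adjusted p under 0.05. Mlkl, Eda2r, Vcam1 and Ccl5 are higher in both double knockouts, Cxcl1 and Map3k5 in Jnk2 KO, and Bid is lower in NEMO/Jnk2 DKO and Jnk2 KO.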

How the data were processed

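Total RNA from 15 mouse livers was hybridised to Affymetrix whole-transcript arrays, per the labels. The deposited values are log2 levels from RMA, which the submitters' processing notes name without a version; that the logarithm is to base 2 follows from how far the values reach. Of 35556 probe sets, 21789 had 1 platform gene symbol, and the probe set with the highest mean stood for each of 19938 genes. Array medians lay between 4.26 and 4.38, and 3 arrays per group limit the precision.

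Groups came from the sample titles. One mean per group was fitted to every gene with limma 3.58.1 (lmFit, eBayes) under R 4.3.3, leaving 10 residual and 3.75 prior degrees of freedom (8 and 5.05 with 13 arrays), and p-values were adjusted over all genes. The fit was tested on simulated data. Alternatives were array weights, a trended prior, renewed quantile normalization, median centring, a filter on dim probe sets, the mean over a gene's probe sets, every probe set, only the compared arrays, a sex term (Xist above 5), the replicate number as a block and each array left out. The members, gene lists and tests were chosen with earlier results of these data known. Besides the members, the text names up to 4 genes of a list that passed, by size of the difference, or the 2 of lowest p in a list without calls, and for the 2 members with the widest range of group means the 5 genes most correlated with them. Ly6d, Mmp12 and Xist, named for the check of the labels, were chosen after their values were seen. Promoter sequences are RefSeq's. Figures were drawn with matplotlib 3.10.9 under Python 3.11.15.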

Additional observations from a re-analysis of the deposited data

How the results depend on the processing

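The count of members past limma's threshold depended most on the 2 arrays whose expression went against their NEMO label. Between NEMO/Jnk1 DKO and WT it was 1 with all arrays, 4 without those 2 or with only the compared arrays, 3 with array weights, 2 without the 2 arrays and with a sex term, and 0 without the 3 arrays of female pattern. Between NEMO/Jnk2 DKO and WT it was 2, and 4 with array weights, without the 2 arrays, without them and with a sex term, or with only the compared arrays; it was 1 with every probe set tested, and 1 to 2 when each array was left out. Between NEMO/Jnk1 DKO and Jnk1 KO it was 0, and 3 without the 2 arrays (0 to 1 leaving out each array). Between NEMO/Jnk2 DKO and Jnk2 KO it was 0, and 3 without the 2 arrays, with or without the sex term (0 to 1 leaving out each array). Between Jnk2 KO and WT it was 1, 3 without the 2 arrays, with or without the sex term, and 2 with a trended robust prior, array weights, renewed quantile normalization, the sex term or the 3 female-pattern arrays left out (0 to 3 leaving out each array). Between Jnk1 KO and Jnk2 KO it was 0, 2 without the 2 arrays, 3 with the sex term as well, and 1 with the sex term alone or without the 3 arrays of female pattern (0 to 2 leaving out each array). Calls over all 19938 genes moved too: between NEMO/Jnk1 DKO and WT they were 13 with all arrays, 1578 without the 2 arrays, 1293 with only the compared arrays, 1115 with array weights, 262 without the 2 arrays and with the sex term, and 0 without the 3 arrays of female pattern (limma; 1865 at an unadjusted p under 0.05). Between NEMO/Jnk2 DKO and WT they were 525, 2116, 1919, 1813, 2095 and 1171 under the same settings. The cause of these changes was not tested. Over the single members' values under all alternatives, 1704 kept direction and side of the threshold, 11 fell short of it, 55 newly passed and 0 reversed; a value smaller than its SE and past no threshold was given no direction.

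Same-numbered mice in different groups had deviations from their group means that correlated between -0.39 and 0.30 over 30 pairs, 4 of them over 0.1. The sample titles give these mice only a shared number. The correlations include the 2 arrays set aside and cannot exclude a shared batch. With the replicate block the counts of members called were 1 between NEMO/Jnk1 DKO and WT, 2 between NEMO/Jnk2 DKO and WT, 1 between Jnk2 KO and WT and 0 in the other comparisons, as without it. With 13 arrays Jnk1 KO and Jnk2 KO have 2 arrays each.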
